A study of Rattus norvegicus with 6 samples.

Results

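The insulin-like growth factor (IGF) axis and the kinase mTOR were measured here through 10 genes: Igf1, Igf2, Igf1r, Igf2r, Igfbp2, Igfbp3, Igfbp4, Igfbp5, Deptor and Mtor. Every probe set whose annotation gives exactly 1 of these symbols was taken, which gave 23 probe sets of the 31042 on the array, and all 10 genes had at least 1 (of 14217 genes named in this way). The genes were listed after an earlier account of the same arrays had given Deptor and Igf1 as lower with Gpc4 and Igf2 as lower with TSP1, so the set was chosen by these measured differences. Differences of the members between treatments are described below, and counts of those past a threshold are given beside the background and support nothing.

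The cells were rat retinal ganglion cells (RGCs), the output neurons of the retina, labelled as postnatal day 6 neurons and kept for 12 days in culture before treatment. There were 3 groups of 2 arrays: RGCs left untreated (Alone), RGCs given glypican 4 protein (Gpc4) for 12 hours, and RGCs given thrombospondin 1 protein (TSP1) for 12 hours. Gpc4 and TSP1 are proteins that astrocytes secrete and that induce synapses, and the study compared them because synapses formed with Gpc4 are active while those formed with TSP1 are silent. All groups shared growth medium containing the neurotrophic factors BDNF and CNTF, to which the methods add insulin. The medium therefore held a ligand of this receptor family in every group. The Gpc4 protein carried a histidine tag and was purified from medium conditioned by HEK293, a line of human embryonic kidney cells, and each array pooled RNA from 2 wells of 1 of 2 RGC cultures. The replicate number was taken as the culture, which the labels do not state.

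IGF1 and IGF2 are secreted ligands that signal mainly through the receptor tyrosine kinase IGF1R, while the mannose 6-phosphate receptor IGF2R takes IGF2 up for degradation and IGF-binding proteins hold the ligands outside the cell and set how much is free. Activated IGF1R acts through PI3K and Akt on mTOR, a kinase that promotes protein synthesis and growth when nutrients and growth factors are present. DEPTOR binds mTOR and inhibits it. In RGCs, IGF1 and mTOR activity are known for their part in survival and axon growth.

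Values are log2 RMA expression, with array medians of 5.96 to 5.99. No detection call is given, so a probe set below its array's median may be at background. Arrays of 1 group differed by a median of 0.10 to 0.11 on the log2 scale. Of 13 RGC markers listed, 11 were measured and all 11 lay above the median on all 6 arrays, from Pou4f1 at 7.91 to Sncg at 14.00 in Alone, and their summed linear level ranged over 75199 to 77255 in Alone, 75690 to 76040 with Gpc4 and 75371 to 76608 with TSP1.

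Among the genes whose Gpc4 arrays lay below both Alone arrays on every probe set, Igf1, Igf2r, Igfbp3 and Mtor have a promoter entry in RefSeq (assembly GRCr8), and the 250 bases before each start are shown so that their motifs can be set beside those values. Capitals mark matches to the palindromic CLEAR element, the E-box CACGTG with GT before it and AC after it, which TFEB, a transcription factor held back by mTOR, is known to bind.
Igf1 promoter (chr7:24172282-24172531, + strand): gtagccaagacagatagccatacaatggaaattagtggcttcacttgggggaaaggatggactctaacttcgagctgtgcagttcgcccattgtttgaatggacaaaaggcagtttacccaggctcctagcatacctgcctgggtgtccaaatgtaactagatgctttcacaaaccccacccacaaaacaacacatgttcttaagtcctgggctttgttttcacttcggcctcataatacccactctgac
Igf2r promoter (chr1:50526628-50526877, + strand): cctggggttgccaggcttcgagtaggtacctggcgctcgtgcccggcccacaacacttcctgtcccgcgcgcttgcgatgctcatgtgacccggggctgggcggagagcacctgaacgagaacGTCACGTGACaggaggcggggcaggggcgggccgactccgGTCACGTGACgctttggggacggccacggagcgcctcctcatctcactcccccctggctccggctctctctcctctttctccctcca
Igfbp3 promoter (chr14:86277945-86278194, - strand): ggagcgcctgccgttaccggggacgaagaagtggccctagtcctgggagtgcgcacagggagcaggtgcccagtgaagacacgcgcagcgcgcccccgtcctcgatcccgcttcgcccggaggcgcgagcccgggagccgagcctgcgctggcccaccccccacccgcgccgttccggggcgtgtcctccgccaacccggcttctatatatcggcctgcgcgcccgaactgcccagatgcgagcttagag
Mtor promoter (chr5:164167735-164167984, + strand): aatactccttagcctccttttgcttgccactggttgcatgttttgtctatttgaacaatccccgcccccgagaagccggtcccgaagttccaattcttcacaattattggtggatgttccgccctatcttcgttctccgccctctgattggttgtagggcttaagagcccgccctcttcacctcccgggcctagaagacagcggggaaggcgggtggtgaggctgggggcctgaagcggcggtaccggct
Igf2r held 2 matches to the 10-base CLEAR element, the first from base -127 to -118 and the second from -87 to -78, counted back from -1 at the base before the start. Searched on both strands, that element occurred in 68 of 33469 rat promoters of this length (0.203%), and 2 or more copies occurred in 3 of them. CACGTG occurred in 5.59% of promoters, and of the 9 member genes with an entry Igf2r, Igf1r and Igfbp2 held it. The FoxO motif GTAAACA (3.21% of promoters, both strands) and the GC-rich SMAD motif GGCGCC (8.69%) were in none of the member promoters, and TATAAA on the gene's strand (8.06%) was in that of Igfbp4 alone. GC content was 46.8% for Igf1, 68% for Igf2r, 71.6% for Igfbp3 and 56.8% for Mtor, beside a median of 51.2% over all promoters. A match describes letters in this window and is not a measured binding site.

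Igf1, the circulating and local growth factor, was lower with Gpc4 on all of its probe sets. On its brightest probe set (1370333_a_at) the log2 level was 9.39 and 9.36 in Alone, 8.58 and 8.82 with Gpc4, and 9.20 and 9.35 with TSP1. Both Gpc4 arrays lay below all 4 others. The log2 difference from Alone was -0.68 with Gpc4 (SE 0.11, n = 2 arrays a group; 1.60-fold lower), with -0.81 in culture 1 and -0.54 in culture 2. With TSP1 it was -0.10 (SE 0.11). Since the RNA came from whole wells, fewer cells of a type and less RNA per cell cannot be told apart.

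The other Igf1 probe sets gave the same order for Gpc4. On 1388469_at the log2 level was 8.59 and 8.88 in Alone, 8.07 and 8.19 with Gpc4, and 8.76 and 8.97 with TSP1. On 1382599_at it was 6.70 and 7.00 in Alone, 6.21 and 6.42 with Gpc4, and 7.12 and 6.98 with TSP1. On all 3 probe sets both Gpc4 arrays were below every Alone and TSP1 array. The Gpc4 differences of these 2 probe sets were -0.60 (SE 0.13) and -0.54 (SE 0.13). The TSP1 differences were 0.13 and 0.20, against -0.10 on the brightest probe set, so the sign of the small TSP1 difference depended on the probe set.

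**Figure D1:**
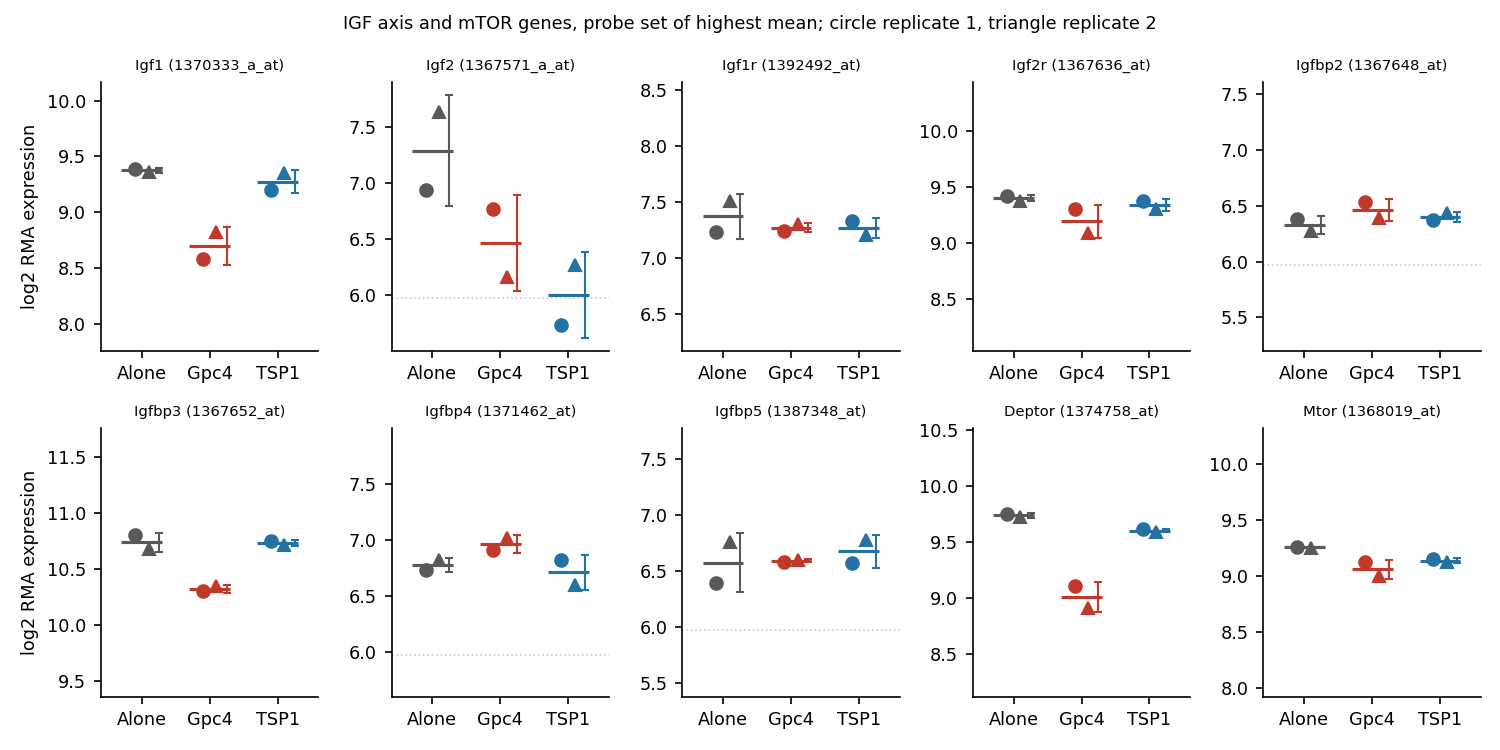
Log2 RMA expression (vertical axis) of the 10 genes on the probe set with the highest mean, by group (horizontal axis). Circles are replicate 1, triangles replicate 2, horizontal lines group means, bars 1 SD (n = 2), and the dotted line the median of the array medians; every panel spans the same range of log2 units. Deptor, Igf1 and Igfbp3 sit lower on both Gpc4 arrays than on the other 4, and Igf2 lies at 6.94 and 7.64 in Alone and at 5.73 and 6.27 with TSP1.

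Igf2, the ligand best known from fetal growth, was lower with both treatments on its brightest probe set. The probe set with the highest mean (1367571_a_at) gave 6.94 and 7.64 in Alone, 6.77 and 6.16 with Gpc4, and 5.73 and 6.27 with TSP1 on the log2 scale. Both treated groups lay below Alone, and the Gpc4 and TSP1 arrays overlapped. The TSP1 difference was -1.29 (SE 0.29; 2.45-fold lower) and was similar in the cultures, at -1.21 and -1.37. The Gpc4 difference of -0.82 (SE 0.29) came from -0.17 in culture 1 and -1.48 in culture 2, and leaving out 1 array at a time moved it between -1.18 and -0.48. The first TSP1 array was below its array's median, so the difference can understate a change in mRNA. The other 3 Igf2 probe sets (1371206_a_at, 1398322_at and 1388252_at) were below the median on all arrays, and their differences from Alone lay between -0.15 and -0.01 for both treatments. Averaged over the 4 probe sets the TSP1 difference of Igf2 was -0.40.

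Markers of other cell types that the cultures could hold were set beside Igf2. Of 14 fibroblast and meningeal markers, 4 were above the median on all arrays and 6 below it on all, among them Fap and Tbx18. Their summed linear level ranged over 747 to 1387 in Alone, 810 to 1180 with Gpc4 and 629 to 869 with TSP1. Dcn, a matrix proteoglycan of fibroblasts, gave 5.59 and 7.75 in Alone, 6.41 and 7.48 with Gpc4, and 4.48 and 5.88 with TSP1. The TSP1 differences were -1.49 for Dcn, -1.64 for Lum and -1.35 for Pdgfra, while the collagen genes Col1a1 and Col3a1 gave 0.04 and -0.37. With Gpc4, where Igf2 was also lower, Dcn, Lum and Pdgfra gave 0.28, 0.31 and 0.01. Over the 14 markers the median difference was -0.17 with TSP1 (10 negative) and -0.02 with Gpc4 (8 negative). Lum was above the median on only 2 arrays. None of the 14 passed the limma threshold for either treatment against Alone, with or without the replicate block. For Gpc4 against TSP1, Dcn and Lum passed with the block only (adjusted p = 0.026 and 0.0086 from limma, differences of 1.76 and 1.94). Their part in the Igf2 values was not tested.

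**Figure D2:**
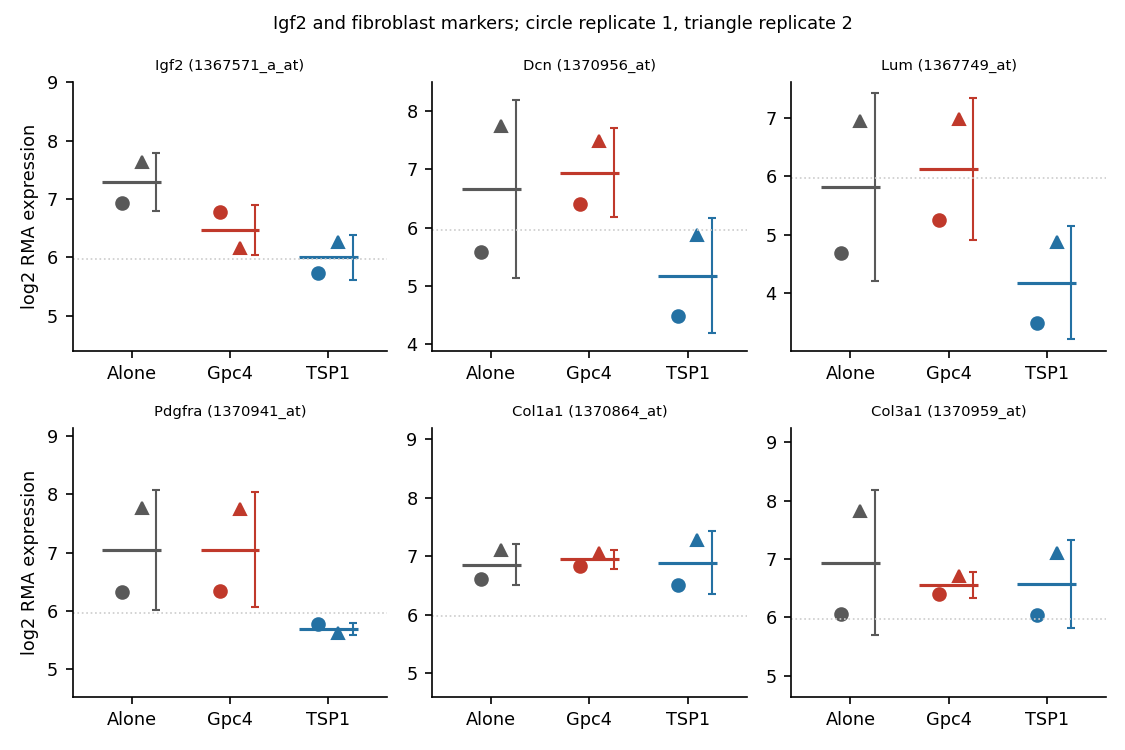
Log2 RMA expression (vertical axis) of Igf2 and 5 fibroblast markers by group (horizontal axis), with circles for replicate 1, triangles for replicate 2, lines for group means, bars for 1 SD (n = 2) and the dotted line for the median of the array medians. Igf2 (5.73 and 6.27) and Pdgfra lie lower on both TSP1 arrays than on both Alone arrays. Dcn and Lum have lower TSP1 means, but in replicate 2 with TSP1 (5.88 and 4.87) they exceed replicate 1 of Alone (5.59 and 4.68). With Gpc4, Igf2 lies low mainly in replicate 2, Dcn and Lum do not lie low, and the collagens do not separate the groups.

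Receptor differences from Alone ranged over -0.41 to 0.00 on the 4 probe sets of Igf1r and Igf2r. Igf1r, the tyrosine kinase receptor for both ligands, gave 7.23 and 7.51 in Alone, 7.24 and 7.30 with Gpc4, and 7.33 and 7.20 with TSP1 on its brighter probe set (1392492_at). These groups overlapped, with differences from Alone of -0.10 for both treatments. The dimmer probe set 1368123_at gave 6.40 and 6.48 in Alone, 6.15 and 6.15 with Gpc4, and 6.00 and 6.06 with TSP1. Here both treatments lay below Alone. The Gpc4 difference of this probe set was -0.29 (SE 0.09) and the TSP1 difference -0.41 (SE 0.09), and the cultures gave -0.40 and -0.42 with TSP1. The probe sets of Igf1r thus disagreed on whether treated and untreated arrays separate, and both treatments are set against the same Alone arrays.

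Igf2r, the clearance receptor for IGF2, was slightly lower with Gpc4 on both of its probe sets. On 1367636_at the log2 level was 9.42 and 9.38 in Alone, 9.30 and 9.09 with Gpc4, and 9.38 and 9.30 with TSP1. On 1386872_at it was 9.19 and 9.31 in Alone, 9.02 and 8.81 with Gpc4, and 9.27 and 9.23 with TSP1. Gpc4 lay below Alone on both probe sets and below TSP1 on the second, where the Gpc4 difference was -0.34 (SE 0.10) and the TSP1 difference 0.00. Igf2r carries the CLEAR matches shown above, while Igf1, Igfbp3 and Mtor, also lower with Gpc4, hold no such match. A link between the matches and the values was not tested.

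The binding proteins did not move as a group. Igfbp3, the main carrier of IGFs in serum, was lower with Gpc4. On 1367652_at it gave 10.80 and 10.68 in Alone, 10.30 and 10.35 with Gpc4, and 10.75 and 10.71 with TSP1, and on 1386881_at 10.05 and 9.88, 9.58 and 9.48, and 9.83 and 9.82. On each probe set both Gpc4 arrays were below the other 4. The Gpc4 differences were -0.41 (SE 0.09) and -0.43 (SE 0.10), and the cultures ranged over -0.50 to -0.33. The TSP1 differences were -0.01 and -0.14.

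Igfbp4, which mostly inhibits IGF action, was on the other side of Alone. It gave 6.73 and 6.82 in Alone, 6.91 and 7.02 with Gpc4, and 6.82 and 6.60 with TSP1. Both Gpc4 arrays were above the other 4, with a Gpc4 difference of 0.19 (SE 0.11) that was 0.18 in culture 1 and 0.20 in culture 2. Igfbp2, a binding protein made by many neural cells, gave 6.38 and 6.27 in Alone, 6.53 and 6.39 with Gpc4, and 6.37 and 6.43 with TSP1. Its Gpc4 arrays lay just above Alone, by a mean of 0.14 (SE 0.10).

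Igfbp5, a binding protein that also attaches to extracellular matrix, has 5 probe sets on this array and showed no treatment pattern that they shared. The brightest (1387348_at) gave 6.39 and 6.76 in Alone, 6.58 and 6.60 with Gpc4, and 6.57 and 6.78 with TSP1, and its groups overlapped. The probe sets 1387347_at, 1397830_at and 1396152_s_at lay below the median on all arrays.

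Deptor, the inhibitor of mTOR, was lower with Gpc4. Its bright probe set (1374758_at) gave 9.75 and 9.72 in Alone, 9.10 and 8.91 with Gpc4, and 9.61 and 9.59 with TSP1. Both Gpc4 arrays lay below the other 4, and both TSP1 arrays lay slightly below Alone. The Gpc4 difference was -0.73 (SE 0.10; 1.66-fold lower), with -0.65 and -0.81 in the cultures, and the TSP1 difference was -0.13 in culture 2 and -0.14 in culture 1. The dim probe set 1393615_at, below the median on all arrays, had the same order for Gpc4, with 4.70 and 5.01 in Alone, 4.47 and 4.04 with Gpc4, and 4.63 and 4.73 with TSP1.

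Mtor, the kinase itself, varied little. It gave 9.26 and 9.25 in Alone, 9.12 and 9.00 with Gpc4, and 9.15 and 9.12 with TSP1. Both treated groups lay below Alone without overlap, by -0.20 (SE 0.09) with Gpc4 and -0.12 (SE 0.09) with TSP1.

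**Figure D3:**
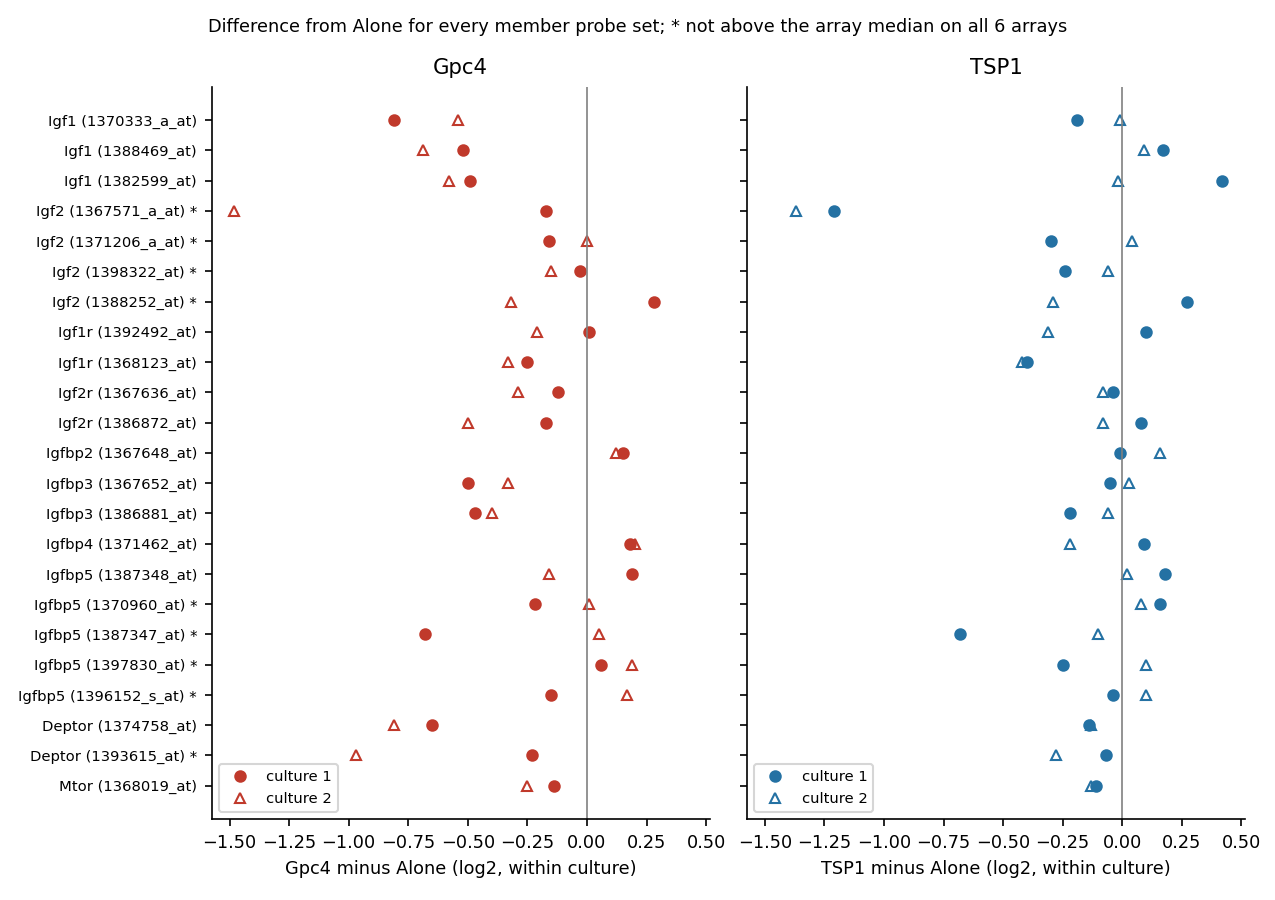
Log2 difference from Alone within each culture (horizontal axis) for all 23 probe sets (vertical axis), Gpc4 at left and TSP1 at right, with filled circles for culture 1, open triangles for culture 2 and a star where a probe set was not above the array median on all 6 arrays. Igf1, Igfbp3 and Deptor points all lie below 0 with Gpc4, and the brightest Igf2 probe set lies at -1.21 and -1.37 with TSP1.

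Over all 23 probe sets, 18 differences from Alone were negative with Gpc4 and 5 positive, with a median of -0.20, beside 50.4% negative and a median of -0.01 over the whole array. With TSP1, 16 were negative and 6 positive, with a median of -0.07, beside 50.6% negative and a median of -0.01 over the whole array. Both Gpc4 arrays lay below both Alone arrays for 12 of the 23, where 18.9% of all probe sets did so, and above for 2, where 16% of all did so. For TSP1 the counts were 8 below (15.6% of all probe sets) and 0 above (14.3%). Between the treatments, Gpc4 lay below TSP1 for 8 (15.5% of all) and above for 3 (14.6%). None of the 23 passed an adjusted p under 0.05 in limma for Gpc4 against Alone (0.0838% of all probe sets did), TSP1 against Alone (0%) or Gpc4 against TSP1 (0.0612%), and 10, 2 and 9 had an unadjusted p under 0.05 in these comparisons (6.88%, 4.40% and 4.51% of all). With the culture as a replicate block, the bright Deptor probe set passed for Gpc4 against Alone (0.206% of all) and Igf1 1388469_at for Gpc4 against TSP1 (0.258%), while none passed for TSP1 against Alone (0.0129%). Since the members were listed with such differences known, nothing is read from these counts.

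Markers of glia and vessels were set beside the Gpc4 differences. The summed linear level of 11 astrocyte and Muller glia markers, 2 of which were above the median on all arrays, was 1242 to 1388 in Alone, 1622 to 1638 with Gpc4 and 1460 to 1539 with TSP1. Glul, the brightest of them, gave 9.74 and 10.03 in Alone and 10.29 and 10.27 with Gpc4, and without it the sum was 343 to 387 in Alone and 386 to 387 with Gpc4. The median Gpc4 difference over the 11 was 0.09, with 4 negative. Fgfr3 and Gfap, below the median on all arrays and so small in these sums, gave Gpc4 differences of 0.525 and 0.305. The sum of 10 endothelial markers, 1 of which was above the median on all arrays, was 359 to 403 in Alone, 485 to 518 with Gpc4 and 335 to 355 with TSP1, and Kdr gave 6.84 and 7.36 in Alone and 7.86 and 8.00 with Gpc4 while Pecam1 was below the median. Without Kdr the sum was 239 to 245 in Alone and 253 to 262 with Gpc4, and the median Gpc4 difference over the 10 was 0.08, with 2 negative. None of these markers passed the limma threshold for Gpc4 against Alone. Their part in the member values was not tested.

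The difference between the cultures was not used to choose the genes and was tested. Culture 2 differed from culture 1 at an adjusted p under 0.05 in limma, fitted with the group means, for 1 of the 23 probe sets, beside 0.561% of all probe sets (0.432% higher in culture 2). That probe set was Igfbp5 1370960_at, with 5.65 and 6.21 in Alone, 5.43 and 6.22 with Gpc4, and 5.81 and 6.29 with TSP1 for cultures 1 and 2. The culture 2 array was the higher in all 3 groups, and only the culture 2 arrays were above the median. The difference was 0.61 (SE 0.08, adjusted p = 0.025 from limma, 3 of 3 groups). Each side is 1 culture, so the SE and p describe the spread among arrays and not the spread between cultures. Leaving out any 1 array gave differences of 0.52 to 0.68. The call was lost in those fits, as were the culture calls of all other probe sets, so its loss is not particular to Igfbp5.

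The other Igfbp5 probe sets did not pass this test. The brightest gave culture differences of 0.37 in Alone, 0.02 with Gpc4 and 0.21 with TSP1, a mean of 0.20 (SE 0.09, adjusted p = 0.44 from limma), and the remaining ones had mean differences of -0.15 to -0.07. Igf1 1388469_at, with a mean of 0.21 (SE 0.07, adjusted p = 0.36 from limma), was the only other member with an unadjusted p under 0.05. Igf2 1367571_a_at was 0.70 higher in culture 2 in Alone and 0.54 higher with TSP1 but -0.61 with Gpc4, and Deptor 1374758_at differed by -0.08 (SE 0.07). Of the 23, 3 were higher in culture 2 in all 3 groups and 5 were lower, where 13.9% and 17.5% of all probe sets were.

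**Figure D4:**
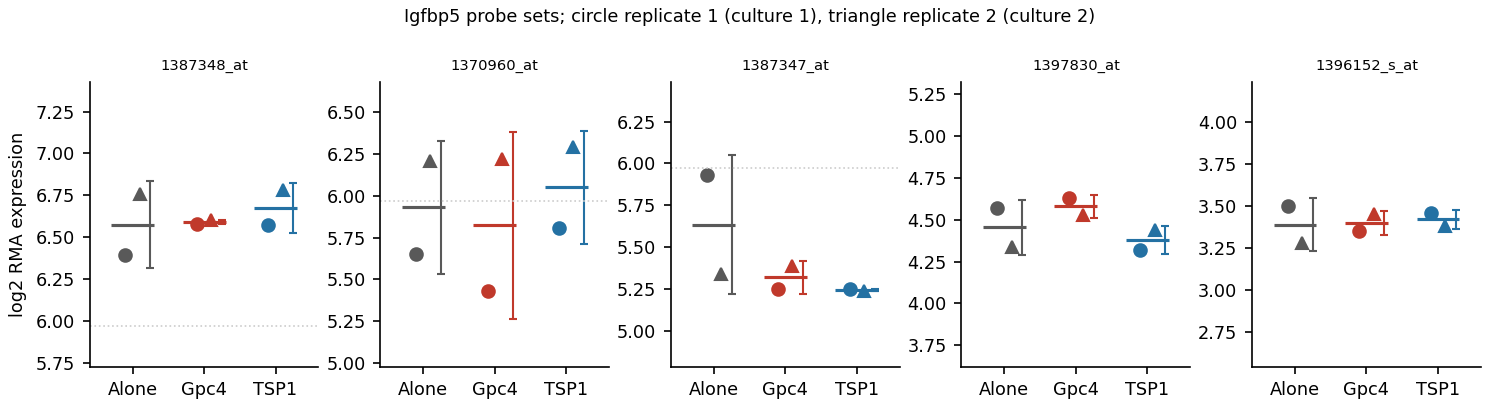
Log2 RMA expression (vertical axis) of the 5 Igfbp5 probe sets by group (horizontal axis), with circles for culture 1, triangles for culture 2, lines for group means, bars for 1 SD (n = 2) and the dotted line for the median of the array medians. In 1370960_at the triangles lie above the circles in all 3 groups (0.56, 0.79 and 0.48), which the dim probe sets do not share.

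Some markers of other cell types also differed between the cultures. The fibroblast sum was 747, 810 and 629 in culture 1 and 1387, 1180 and 869 in culture 2 for Alone, Gpc4 and TSP1, and 2 of its 14 markers, Dcn and Lum, passed the limma threshold. All 12 microglia markers had a negative difference and 5 of them passed, with sums of 1049, 884 and 1137 in culture 1 and 561, 604 and 605 in culture 2. Of 10 pericyte and smooth muscle markers, Tagln and Abcc9 were higher, with sums of 969, 1035 and 991 against 1387, 1483 and 1732. Without Tagln, the brightest, the sums were 697 to 704 in Alone, 658 to 722 with Gpc4 and 664 to 686 with TSP1. The median culture difference over the 10 was -0.01, with 6 negative. Their part in the Igfbp5 value was not tested.

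The rest of the pathway was followed through 7 gene lists, with 1 probe set per gene. No listed gene passed the limma threshold in any of the comparisons, with or without the replicate block, while 20 of 14217 genes passed upward and 0 downward for Gpc4 against Alone. Of 25 other insulin and IGF genes 23 were measured, and their median difference was 0.04 with Gpc4 and 0.02 with TSP1. Insr, the insulin receptor, was below the array median, with 5.42 and 5.39 in Alone and 5.71 and 5.64 with Gpc4. Igf2bp1, which binds Igf2 mRNA, was below the median too and had a Gpc4 difference of 0.34 (SE 0.14). Grb10, an adaptor that dampens insulin and IGF receptor signaling, had a Gpc4 difference of -0.32 (SE 0.15). Irs2, an adaptor of both receptors, was at 9.00 and 9.01 in Alone and 9.15 and 9.10 with Gpc4, while Irs1 was below the median on all arrays. The 3 genes of smallest p with TSP1 were Stc1 (-0.28), an inhibitor of a protease that cleaves binding proteins, Igfbpl1 (0.17) and Igfbp6 (-0.15).

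Signaling genes between receptor and mTOR varied within a narrow range. Of 14 measured PI3K and Akt genes, 12 had negative Gpc4 differences, where 50.4% of all probe sets, dim ones and several per gene included, did. Their Gpc4 median was -0.09, with a range of -0.29 to 0.30, and the TSP1 median was -0.08. Those of smallest p with Gpc4 were Inppl1, a lipid phosphatase (-0.29), Pik3ip1, an inhibitor of PI3K (-0.27), and Pik3ca, a catalytic subunit (-0.27). With TSP1 they were Inppl1 (-0.16) and the regulatory subunits Pik3r2 (-0.17) and Pik3r1 (0.17). Akt1 and Akt2 gave -0.09 and 0.10 with Gpc4. The 9 mTOR complex subunits, which include the scaffolds Rptor (-0.09) and Rictor (-0.14) and the shared subunit Mlst8 (0.06), lay between -0.14 and 0.06 with Gpc4. Tti1, an assembly factor, gave -0.12 with Gpc4 and -0.10 with TSP1, and the inhibitory subunit Akt1s1 and Rptor gave -0.10 and -0.07 with TSP1. The bright Deptor probe set at -0.73 was outside that range, but Deptor was listed for its known Gpc4 difference, so nothing is read from this contrast.

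Among 30 measured upstream regulators of mTORC1 the Gpc4 median was -0.02 and the TSP1 median -0.01. Sesn2, a leucine sensor that restrains mTORC1, gave 8.57 and 8.65 in Alone, 8.33 and 8.02 with Gpc4, and 8.42 and 8.64 with TSP1. Its Gpc4 difference of -0.43 (SE 0.13) was the most negative of this list and did not pass (adjusted p = 0.59 from limma). The TSC complex genes Tsc1 and Tsc2, which inhibit the GTPase Rheb, gave -0.08 and -0.20, Rheb itself 0.02, and the stress-induced inhibitor Ddit4 0.18 with Gpc4 and 0.20 with TSP1. Tsc2 (-0.14) and Fnip2 (0.16), a partner of folliculin, were the others of smallest p with TSP1.

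Downstream genes were described in the same way. The 14 measured translation and autophagy effectors had a Gpc4 median of -0.06. Eif4ebp1, the translation repressor that mTORC1 phosphorylates, gave 8.23 and 8.16 in Alone, 7.84 and 7.93 with Gpc4, and 7.91 and 8.09 with TSP1, and its partner Eif4e had a Gpc4 difference of 0.22. Eef2k, a kinase that slows elongation, gave -0.21 with Gpc4. With TSP1 Eif4ebp1 gave -0.20, Tfeb -0.14 and the kinase gene Rps6kb1 0.12. The 14 measured FoxO genes had medians of -0.01 with Gpc4 and 0.04 with TSP1, and those of smallest p with Gpc4 were Cited2 (-0.32), Klf15 (-0.29, below the median) and Bcl6 (0.20). Txnip, an inhibitor of glucose uptake, gave 6.46 and 6.54 in Alone, 6.46 and 6.27 with Gpc4, and 6.13 and 6.10 with TSP1. Its TSP1 difference of -0.39 (SE 0.10) was the largest of this list and did not pass (adjusted p = 0.98 from limma). Trim63 (0.20, below the median) and Bcl6 (0.14) followed with TSP1.

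Genes of amino acid supply raised by ATF4, a transcription factor whose output mTORC1 increases, had the lowest list median. Of 17 measured, 16 had negative Gpc4 differences and 15 negative TSP1 differences, where 50.4% and 50.6% of all probe sets did. The medians were -0.17 and -0.10, against -0.01 for both over all genes. Slc7a11, the cystine transporter subunit, gave 6.52 and 6.85 in Alone, 6.16 and 6.18 with Gpc4, and 6.41 and 6.62 with TSP1. Both Gpc4 arrays were below the other 4, with a difference of -0.52 (SE 0.13, adjusted p = 0.48 from limma). Chac1, an enzyme that degrades glutathione, gave a Gpc4 difference of -0.37, and Phgdh, the first enzyme of serine synthesis, a TSP1 difference of -0.33. Shmt2 and Asns, enzymes of glycine and asparagine synthesis, gave -0.15 and -0.12 with TSP1. Atf4 mRNA itself gave -0.05 with Gpc4. None of the 17 passed the test, and the 2 treatments share the Alone arrays. All 17 probe sets lay above the median on all arrays, while the shares over all probe sets include dim ones and several per gene. The list was chosen with earlier results of these data known.

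**Figure D5:**
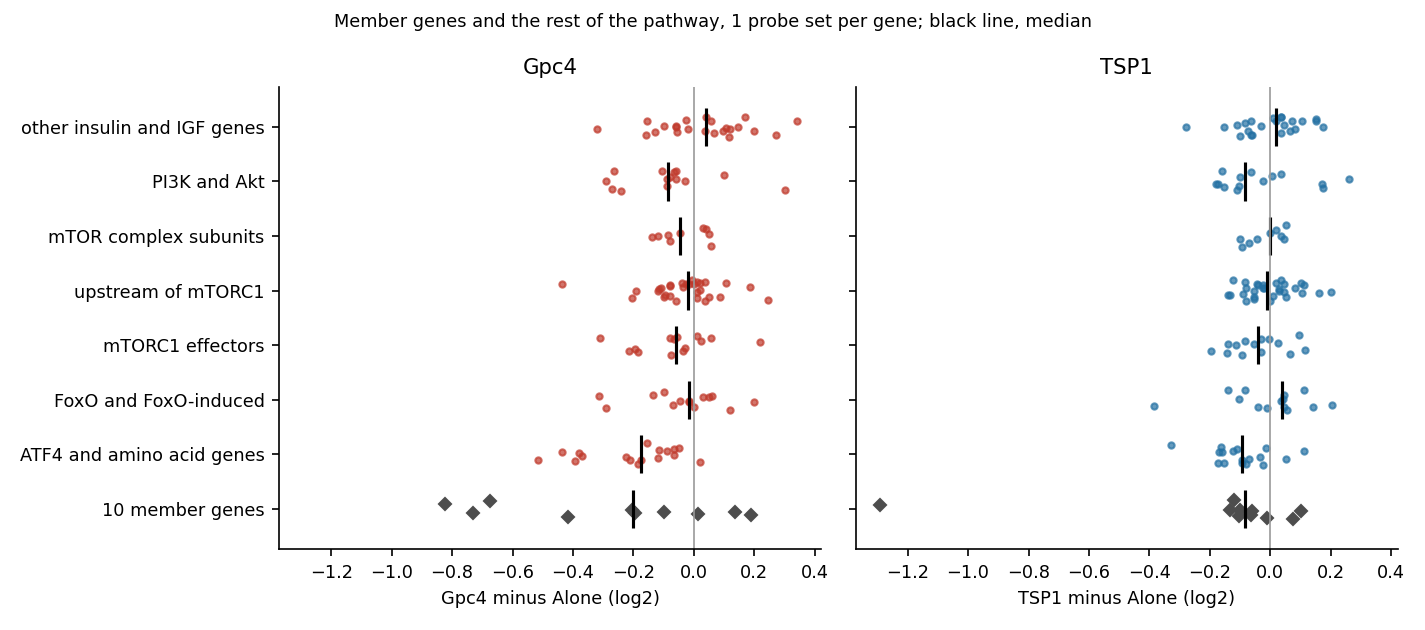
Log2 difference from Alone (horizontal axis) of each measured gene of 7 pathway lists and of the 10 member genes (vertical axis), Gpc4 at left and TSP1 at right, 1 probe set per gene and shifted at random vertically within its row, with the median as a black line. Most list genes lie near 0, the ATF4 list has its medians at -0.17 and -0.10, and Igf2, Deptor and Igf1 lie farthest left among the members with Gpc4, while with TSP1 Igf2 alone stands apart at -1.29.

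The genes whose pattern over the 6 arrays was most like those of Deptor, Igf1 and Igf2 were taken by Pearson correlation, among genes of a mean log2 level of at least 6 that varied enough between arrays. For Deptor they were Inhba (r = 0.987), Stac2 (0.978), Ptprr (0.971), Mtus2 (0.968) and Slc16a6 (0.968), out of 945 genes. For Igf1 they were Lin7a (0.972), Mrap2 (0.966), C13h1orf21 (0.963), Ankrd33b (0.963) and Tmod1 (0.956), out of 1066. For Igf2 the values were lower, from Cebpd (0.769) and Crym (0.726) to Gsta1 (0.675), Inmt (0.660) and Steap1 (0.649), out of 190. These are descriptions over 6 arrays that share cultures and treatments.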

How the data were processed

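Messenger RNA of 6 RGC samples was measured on Affymetrix rat genome arrays, 2 per group, all of which were used. The authors ran Expression Console, of which the version is not given in the sources used here, to obtain the deposited log2 RMA expression values, background-corrected, normalized between arrays and rounded to 2 decimals. The genome build behind the array annotation is not given in the sources used here, so no array coordinates are printed. The number of arrays limits the precision.

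Values were used as deposited, with no filter. Groups were compared with limma 3.58.1 under R 4.3.3 (lmFit, eBayes, all 6 arrays together, 3 residual degrees of freedom, two-sided, Benjamini-Hochberg over 31042 probe sets, threshold 0.05), and cultures with a culture term added to the group means (2 residual degrees of freedom). The scripts were tested on simulated data. The members, gene lists and marker lists were chosen with earlier results of these data known. All member probe sets were named, and of each list every gene past the threshold, otherwise the 3 of smallest p with Gpc4 and with TSP1, plus a fixed set of core genes. The genes most similar in pattern had an SD over the arrays of at least a fixed share of the target's.

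Symbols came from the platform annotation, in which 20826 probe sets have 1 symbol, 436 several and 9780 none. Of the first, 20758 had the same symbol in RefSeq GRCr8. Some listed genes are not reported here. Promoter sequences came from RefSeq GRCr8, with an entry for 9 of the 10 genes.

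The replicate numbers were taken to pair arrays of 1 culture, which the labels do not state. The methods state 2 separate cultures, and arrays of the same number deviated together from the means of their groups (r = 0.29 for Alone with Gpc4, 0.35 for Alone with TSP1 and 0.37 for Gpc4 with TSP1, over all probe sets). A fit with the replicate block was an alternative, as were centring on the median, quantile normalization, keeping mean levels of at least 6, a trended variance, only the groups compared, averaging a gene's probe sets, an adjusted p under 0.10, the methods' t-test, and leaving out each array. Python 3.11.15 and matplotlib 3.10.9 drew the figures.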

Additional observations from a re-analysis of the deposited data

Results flagged for a closer look

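Paired by replicate number, Igf1 probe set 1388469_at lay on opposite sides of Alone with the 2 treatments. Without that pairing the TSP1 and Alone arrays overlapped, and the TSP1 difference was 0.13 (SE 0.13). Within both cultures the Gpc4 array was lower than the Alone array (by -0.52 and -0.69) and the TSP1 array higher (by 0.17 and 0.09), on the log2 scale. The Gpc4 minus TSP1 difference was -0.73 (-0.735 before rounding). As Igf1 was listed for its Gpc4 values, this difference is a description and was not tested further. The other Igf1 probe sets had TSP1 differences of both signs between the cultures or below 0.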

How the results depend on the processing

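For Gpc4 against Alone, 0 of the 23 probe sets passed. When mean levels of at least 6 were kept 1 passed, beside 37 of all 15429 probe sets. With a trended variance 2 passed (49 of all 31042), and with the replicate block 1 (64 of all 31042). With the block and that filter together 3 passed (90 of 15429). At an adjusted p under 0.10 the count was 1, and by the methods' t-test at an unadjusted p it was 5. For TSP1 against Alone 3 passed by that t-test. For Gpc4 against TSP1 1 passed with a trended variance (39 of all 31042) and 1 with the replicate block (80). With the block and that filter 4 passed (100 of 15429), and 5 by the t-test. Counts over all probe sets are not given for the t-test at an unadjusted p or for the 0.10 threshold. After Benjamini-Hochberg adjustment 0 of all 31042 probe sets passed that t-test in each of these comparisons. Nothing is read from these member counts. The Igfbp5 culture difference, 1 call, became 0 at mean levels of at least 6 (which removes the probe set). It was also lost within each pair of groups alone and with each array left out, where every call over all probe sets was lost. The Gpc4 difference of the bright Deptor probe set was -0.83 to -0.63 when each array was left out. Averaging all probe sets of a gene turned the TSP1 difference of Igf1 from -0.10 to 0.08. Of the 593 alternative values, 569 were counted as unchanged. Among them, values called in the main fit stayed called, and uncalled ones stayed uncalled and within the spread. Values averaged over a gene's probe sets have no adjusted p and were judged by the spread alone. Signs could still change, as for Igf1r with Gpc4 (-0.24 to 0.04 when each array was left out). Another 9 crossed to pass and 9 crossed to fail, and 6 moved by more than the spread, all on averaging a gene's probe sets. The block changed no other member's or listed pathway gene's call. The cause was not tested. Values below the array medians have no detection call.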
